A study of Mus musculus with 8 samples.

Results

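The genes described here are 10 genes of the vessel wall measured in mouse quadriceps: Myh11, Acta2, Tagln, Cnn1, Lmod1 and Smtn of smooth muscle cells, and Pdgfrb, Rgs5, Cspg4 and Notch3 of pericytes and other mural cells. They were chosen by gene symbol, and all 10 were found among the 35494 symbols of the count table, each on a row of its own. All 10 also passed the filter on low counts that left 14112 genes for testing. Bulk RNA sequencing compared the quadriceps of 4 mice injected under the skin with 1 M MC38 cells (scMC38), a mouse colorectal cancer line, with that of 4 mice injected with saline (control), with 1 library per mouse. The saline injection is given by the design text and the treatment tag of the controls, while a protocol note repeated for all 8 samples mentions cells only. All 8 mice were male wild-type C57BL/6 animals of 8 weeks at the start, and muscle was taken at day 28. The design sets the muscle of tumour-bearing mice against that of saline mice in a model whose cachexia the series title calls mild.

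Smooth muscle cells wrap arteries and veins and set the width of the vessel by contracting, whereas pericytes sit on capillaries inside the basement membrane they share with the endothelium. The contractile genes of smooth muscle are switched on by serum response factor (SRF) and its partner myocardin, which act at a short DNA element called the CArG box. Endothelial cells attract mural cells with the growth factor PDGF-B, read by the receptor PDGFRβ, and instruct arterial smooth muscle through Notch ligands, read by NOTCH3. In skeletal muscle these cells are a small minority beside the fibres. In a bulk sample, fewer mural cells and less RNA per mural cell cannot be told apart.

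Of the 10 genes, 7 had an entry in the RefSeq table of gene starts (build GRCm38.p6), and the 250 bases before the start were searched for a pair of motifs. The windows of 3 genes are shown: Smtn passed the test, Notch3 had no overlap between groups, and Acta2 had the largest difference among the genes averaging above 1 CPM (counts scaled to a common library total of 1 M) in both groups. Acta2 (chr19:34255374-34255623, minus strand) encodes smooth muscle α-actin. Smtn (chr11:3539293-3539542, minus strand) encodes smoothelin. Notch3 (chr17:32166891-32167140, minus strand) encodes the receptor. Each window is written 5′ to 3′ on the strand of its gene, and capitals mark motif matches.
Acta2: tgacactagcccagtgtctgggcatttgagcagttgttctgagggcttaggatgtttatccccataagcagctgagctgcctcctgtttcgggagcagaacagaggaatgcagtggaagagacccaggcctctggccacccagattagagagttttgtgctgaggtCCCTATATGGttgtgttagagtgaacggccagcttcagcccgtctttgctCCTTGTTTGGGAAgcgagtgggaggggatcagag
Smtn: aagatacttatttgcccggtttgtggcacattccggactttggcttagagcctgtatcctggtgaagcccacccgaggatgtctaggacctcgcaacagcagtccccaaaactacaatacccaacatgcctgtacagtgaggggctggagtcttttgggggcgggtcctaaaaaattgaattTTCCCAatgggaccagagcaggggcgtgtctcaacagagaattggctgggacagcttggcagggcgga
Notch3: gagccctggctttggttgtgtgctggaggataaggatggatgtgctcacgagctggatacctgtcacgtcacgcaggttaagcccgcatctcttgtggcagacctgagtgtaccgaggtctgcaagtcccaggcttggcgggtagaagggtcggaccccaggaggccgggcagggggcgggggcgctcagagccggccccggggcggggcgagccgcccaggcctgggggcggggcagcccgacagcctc
The CArG box was searched with up to 1 G or C allowed in its A and T core, and it reads the same way on both strands. The Acta2 window held 2 such matches, CCCTATATGG at bases -84 to -75 and CCTTGTTTGG at bases -34 to -25 from the listed start, each with 1 G or C in the core. None of the other 6 windows held one, against 8.59% of all 32851 windows of this length. The second motif was TGGGAA on either strand, the core element of the Notch partner RBPJ. It stood once in Acta2, where it overlaps the CArG match nearer the start, and once in Smtn, against 21.6% of all windows. These matches describe the letters of the window and were not tested as binding sites.

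Total estimated counts per library lay between 52.9 and 61.7 M in scMC38 and between 50.5 and 62.1 M in controls. The summed level of 6 bone and marrow genes was 73.0 CPM in scMC38 1 and 471 CPM in scMC38 3, against 0.587 to 2.07 CPM in the other scMC38 libraries and 0.486 to 1.62 CPM in controls. Mitochondrially encoded genes took 14.4% to 18.9% of counts in scMC38, against 24.3% in control 1, 29.7% in control 2 and 16.3% to 16.8% in the other 2 controls. Values without scMC38 1 and 3 and without control 1 and 2 are therefore given for each of the 10 genes.

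All 10 genes had a lower fitted level in scMC38 than in control muscle, and a single gene, Smtn, passed the test. Their log2 fold changes, scMC38 minus control, ran from -1.66 for Cnn1 to -0.19 for Lmod1 with a median of -0.53, while the median over all tested genes was 0.00087. A negative value was shared by 49.8% of all tested genes. Across all genes, edgeR called 1.2% at an adjusted p under 0.05, 0.468% lower and 0.737% higher. DESeq2, which called 10.1% of all genes, placed Myh11, Acta2, Cnn1, Smtn and Notch3 below its threshold, 5 of the 10 against 4.24% of all genes that it called lower. An unadjusted p under 0.05 with a lower level was reached by 6 of the 10 genes, compared with 9.77% of all genes. All 4 scMC38 libraries lay below all 4 controls for Myh11, Smtn and Notch3, a pattern found in 6.45% of all genes. The genes share cells and libraries, so their common direction is not 10 separate observations. They were also chosen with earlier results of these data known, so the shares over all genes are no test of the set.

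**Figure D1:**
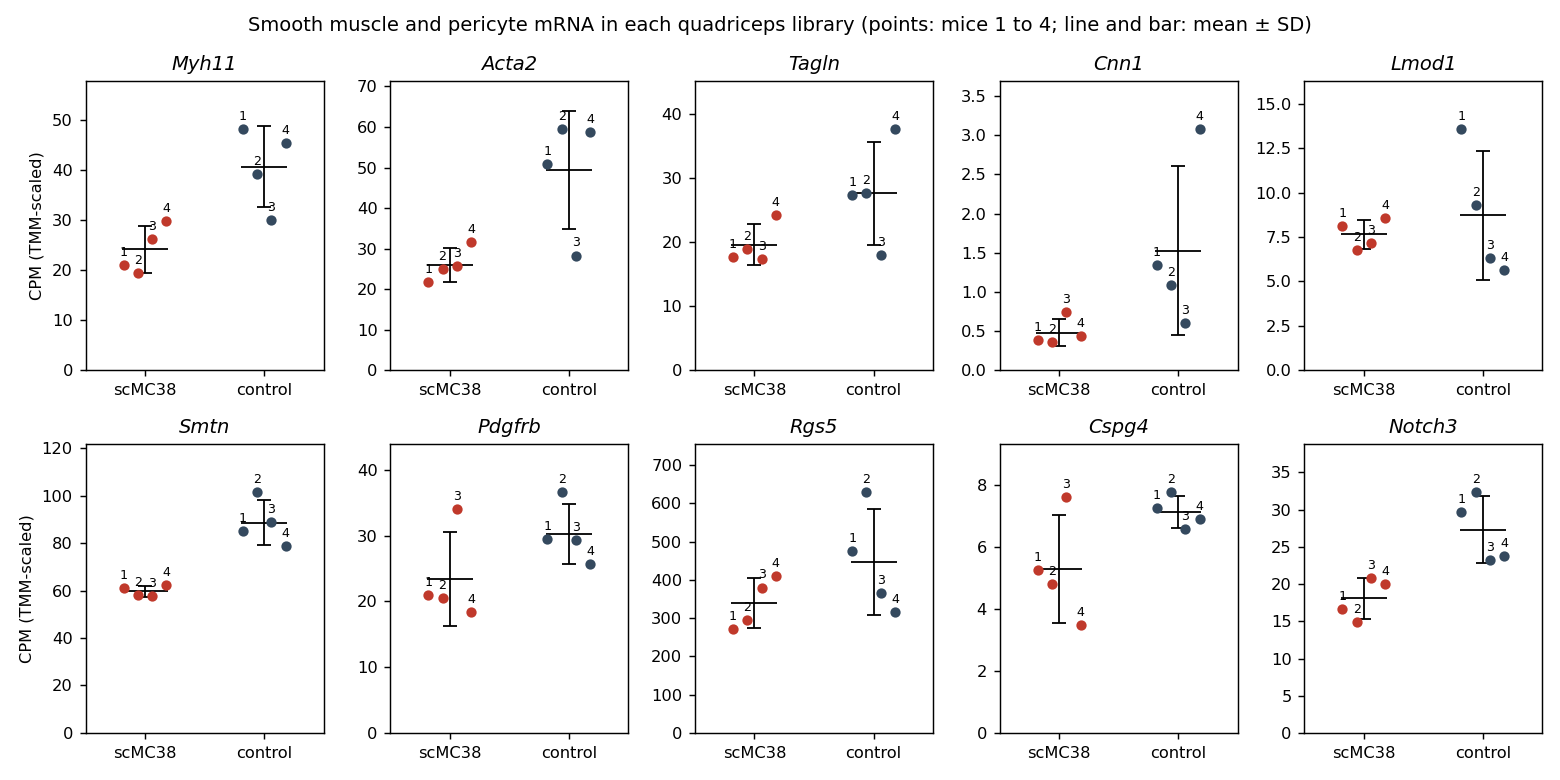
CPM (vertical axis, from 0) of each of the 10 genes in the 4 scMC38 and 4 control libraries. Points are single mice numbered 1 to 4, and the horizontal line and bar give the mean ± SD. Smtn separates the groups with a wide gap, whereas the lowest Acta2, Tagln and Cnn1 control, which is control 3 for each, lies among the scMC38 libraries.

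Smtn encodes smoothelin, an actin-associated protein of contractile smooth muscle. It stood at 61.1, 58.0, 57.5 and 62.2 CPM in scMC38 1 to 4, against 85.1, 102, 88.9 and 78.9 CPM in control 1 to 4. The groups do not overlap, and the scMC38 libraries lie close together. Control 3, the lowest control for Myh11, Acta2, Tagln and Cnn1, was not the lowest for Smtn. Which cells of the muscle hold the Smtn mRNA was not tested. The means were 59.7 ± 2.30 CPM in scMC38 and 88.6 ± 9.56 CPM in controls (SD, n = 4). Smtn fell by 0.57 on the log2 scale (SE 0.088, edgeR adjusted p = 0.0310), a level 32.6% lower. Its call was lost in 7 of the 8 fits that leave out 1 library, with adjusted p up to 0.101, and remained in the fit without control 4 (adjusted p = 0.0338). Without scMC38 1 and 3 the log2 fold change was -0.54 (adjusted p = 0.0883), and without control 1 and 2 it was -0.50 (adjusted p = 0.216).

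The genes of the thick and thin filaments had the larger differences but more spread between control mice. Myh11, the smooth muscle myosin heavy chain, stood at 21.0, 19.5, 26.1 and 29.8 CPM in scMC38 1 to 4, against 48.1, 39.1, 29.9 and 45.4 CPM in control 1 to 4. The groups touch without overlapping, since the highest scMC38 library (29.82 CPM) is just below the lowest control (29.89 CPM). The log2 fold change was -0.75 (SE 0.18, edgeR adjusted p = 0.0837). Acta2 stood at 21.8, 24.9, 25.6 and 31.7 CPM in scMC38 1 to 4, against 50.8, 59.4, 28.3 and 58.8 CPM in control 1 to 4. Control 3 falls inside the scMC38 range, and the other 3 controls lie well above it. Its log2 fold change was -0.92 (SE 0.23, adjusted p = 0.0865 by edgeR), a mean of 26.0 ± 4.14 CPM in scMC38 and 49.3 ± 14.6 CPM in controls (SD, n = 4). Acta2 was called lower by edgeR in 1 of the 8 fits that leave out 1 library, that without control 3 (log2 fold change -1.12, adjusted p = 0.0484), and in the other 7 the adjusted p ran up to 0.221. Without scMC38 1 and 3 the log2 fold change was -0.70 for Myh11 (edgeR adjusted p = 0.205) and -0.78 for Acta2 (edgeR adjusted p = 0.245). Without control 1 and 2 it was -0.65 for Myh11 (edgeR adjusted p = 0.407) and -0.76 for Acta2 (edgeR adjusted p = 0.433).

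Acta2 is a small fraction of the actin mRNA of this tissue, so its count could be affected by its relatives. Acta1, the skeletal muscle actin gene, stood at 28925 ± 4833 CPM in scMC38 and 31512 ± 4066 CPM in controls (SD, n = 4), with a log2 fold change of -0.12 (edgeR adjusted p = 0.730). Of the 2005 stretches of 31 bases in the longest Acta2 transcript of the GENCODE M21 annotation, 0 occurred in any Acta1, Actc1 or Actg2 transcript, 17 in Actb and 26 in Actg1. Exact shared sequence of that length with the abundant Acta1 was absent from that annotation. Actb stood at 563 CPM in scMC38 and 445 CPM in controls, and Actg1 at 226 CPM in scMC38 and 262 CPM in controls. Whether reads of other actin genes entered the Acta2 count was not tested. The other actin genes did not pass: the log2 fold change was -1.77 for the cardiac Actc1 (adjusted p = 0.218 by edgeR), -2.11 for the enteric Actg2 (adjusted p = 0.151), 0.34 for Actb (adjusted p = 0.560) and -0.22 for Actg1 (adjusted p = 0.598). Actg2 was scarce, with a mean of 0.126 CPM in scMC38 and 0.543 CPM in controls, where control 4 was highest at 1.29 CPM.

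Tagln encodes SM22α, an actin-bundling protein and an early marker of the smooth muscle lineage. It stood at 17.7, 19.0, 17.4 and 24.3 CPM in scMC38 1 to 4, against 27.3, 27.6, 17.9 and 37.6 CPM in control 1 to 4. Control 3 lies within the scMC38 range, and the log2 fold change of -0.50 (SE 0.21) did not pass (edgeR adjusted p = 0.223). Cnn1, calponin 1, which restrains actomyosin in smooth muscle, was the scarcest of the 10, with 0.388, 0.360, 0.741 and 0.433 CPM in scMC38 1 to 4, against 1.34, 1.09, 0.600 and 3.08 CPM in control 1 to 4. These values rest on 19 to 52 counts per scMC38 library and 30 to 169 per control library. Control 4 is the highest and control 3 overlaps scMC38 3. The log2 fold change was -1.66 (SE 0.51, adjusted p = 0.126 by edgeR), and -1.06 without control 4. In the fit without scMC38 1 and 3 the log2 fold change was -0.33 for Tagln and -1.92 for Cnn1, and without control 1 and 2 it was -0.52 for Tagln and -1.94 for Cnn1. Tagln was at -0.31 without control 4.

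Lmod1, leiomodin 1, which nucleates actin filaments in smooth muscle, differed least. It stood at 8.11, 6.77, 7.19 and 8.55 CPM in scMC38 1 to 4, against 13.6, 9.32, 6.34 and 5.64 CPM in control 1 to 4. The scMC38 libraries lie inside the control range, and no scMC38 library is below the lowest control. The log2 fold change was -0.19 (SE 0.26, edgeR adjusted p = 0.706, 95% interval -0.78 to 0.40), and it turned to 0.11 without control 1 and to 0.34 without control 1 and 2. It was -0.17 without scMC38 1 and 3, and -0.32 without control 3 and -0.35 without control 4.

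**Figure D2:**
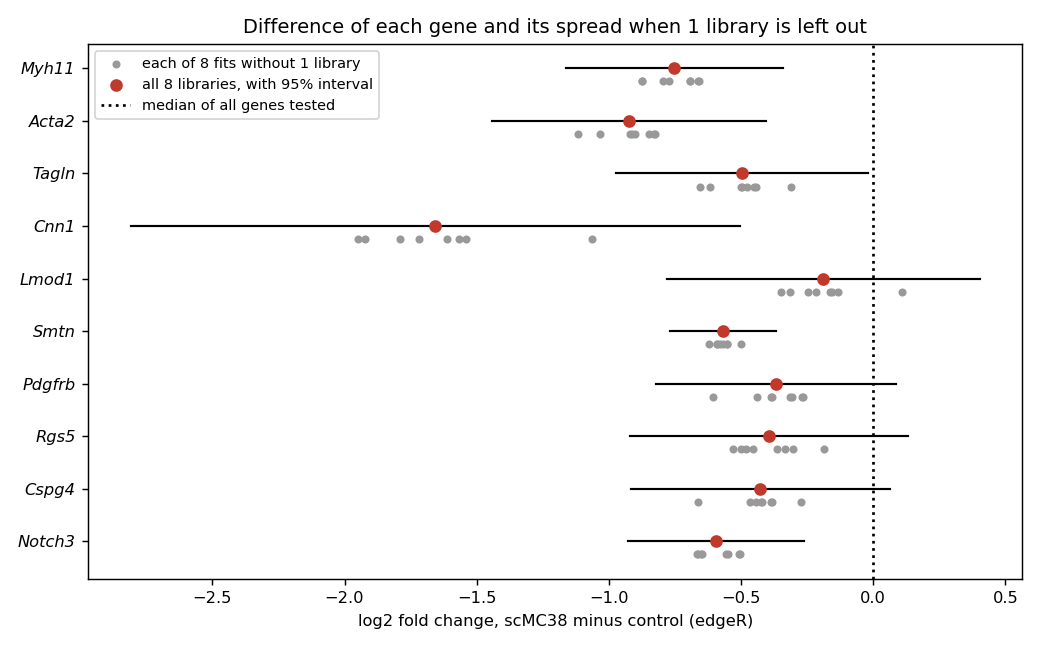
Log2 fold change of scMC38 minus control from edgeR (horizontal axis) for each gene, with the 95% interval of the fit over all 8 libraries (red point and line) and the 8 estimates that each leave out 1 library (grey points). The dotted line is the median of all tested genes, and the grey points stay below it for 9 of the 10 genes, the exception being Lmod1 without control 1.

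Among the pericyte and mural receptor genes, Notch3 was the most separated. It stood at 16.7, 14.9, 20.8 and 20.0 CPM in scMC38 1 to 4, against 29.8, 32.4, 23.2 and 23.8 CPM in control 1 to 4. Every scMC38 library is below every control, with log2 fold change -0.59 (SE 0.15, edgeR adjusted p = 0.0865). The value was -0.62 without scMC38 1 and 3 (adjusted p = 0.152 by edgeR). Without control 1 and 2 it was -0.39 (adjusted p = 0.424 by edgeR), and those 2 controls are the ones with the higher Notch3 levels and mitochondrial shares. The part of the mitochondrial share in the difference was not tested. With mitochondrial genes left out of the totals, the median over the 10 genes was -0.55.

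Rgs5, a brake on G protein signalling used as a pericyte marker, was the most abundant of the 10. It stood at 272, 296, 379.9 and 410.1 CPM in scMC38 1 to 4, against 476, 629.6, 366 and 315 CPM in control 1 to 4. The groups overlap, since control 3 and control 4 lie inside the scMC38 range. The log2 fold change of -0.40 (SE 0.23) did not pass (edgeR adjusted p = 0.354). It was -0.32 without scMC38 1 and 3, -0.19 without control 2 and -0.016 without control 1 and 2, so that this value rests on these 2 controls.

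Pdgfrb, the receptor for PDGF-B, stood at 20.9, 20.4, 34.0 and 18.4 CPM in scMC38 1 to 4, against 29.5, 36.6, 29.4 and 25.7 CPM in control 1 to 4. Cspg4, which encodes the NG2 proteoglycan of pericytes, stood at 5.26, 4.79, 7.62 and 3.47 CPM in scMC38 1 to 4, against 7.27, 7.77, 6.56 and 6.88 CPM in control 1 to 4. For both genes scMC38 3 lies among the controls and the other 3 scMC38 libraries lie below all of them. The log2 fold change was -0.37 for Pdgfrb (SE 0.20, edgeR adjusted p = 0.320) and -0.43 for Cspg4 (SE 0.22, edgeR adjusted p = 0.293). Without scMC38 1 and 3 they were -0.62 (adjusted p = 0.103 by edgeR) and -0.77 (adjusted p = 0.0883 by edgeR). Without control 1 and 2 they were -0.24 for Pdgfrb (adjusted p = 0.725 by edgeR) and -0.36 for Cspg4 (adjusted p = 0.641 by edgeR). Without scMC38 4 both were at -0.27. Cspg4 was the steadiest of the 10 in controls, with a coefficient of variation of 7.32%, and Cnn1 the most variable at 70.7%.

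Levels between genes can be compared per length. Divided by the length of the longest coding transcript in the annotation, Rgs5 reached 82.9 CPM per kb in scMC38 and 109 CPM per kb in controls. Smtn followed with 17.6 CPM per kb in scMC38 and 26.2 CPM per kb in controls, then Acta2 with 12.8 CPM per kb in scMC38 and 24.2 CPM per kb in controls, and Tagln with 12.3 CPM per kb in scMC38 and 17.3 CPM per kb in controls. The ranges of these last 3 genes overlap in controls, where their order is not resolved beyond the spread, whereas in scMC38 those of Acta2 and Tagln overlap and Smtn lies above both. Myh11, Pdgfrb, Notch3 and Lmod1 lay between 1.94 and 4.32 CPM per kb in scMC38 and between 2.21 and 6.20 CPM per kb in controls. Cspg4 and Cnn1 were below 1 CPM per kb in both groups.

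The libraries of a group did not order the genes in a single way. Control 2 was the highest of all 8 libraries for 6 of the 10 genes, control 1 for 2 and control 4 for 2. Control 3 was the lowest control for 6 genes and control 4 for the other 4. The mean log2 level of the 6 contractile genes relative to the control mean was -0.80, -0.85, -0.61 and -0.51 in scMC38 1 to 4, against 0.19, 0.083, -0.53 and 0.25 in control 1 to 4. Control 3 thus lies within the range of the scMC38 libraries. The same level of the 4 pericyte and mural genes was -0.58, -0.63, -0.070 and -0.56 in scMC38 1 to 4, against 0.071, 0.31, -0.15 and -0.23 in control 1 to 4. Here scMC38 3 lies within the range of the controls. The 2 subgroups therefore overlap between groups through different mice, and whether their differences are unequal was not tested.

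**Figure D3:**
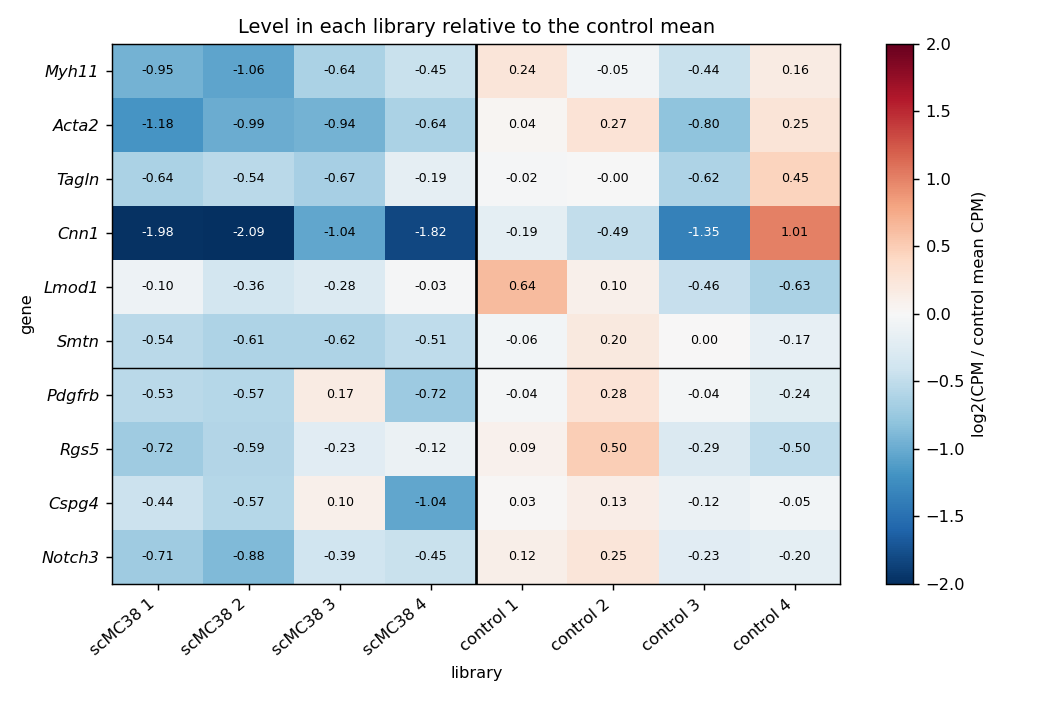
Log2 of CPM over the control mean CPM (colour and printed value) for each gene (rows, contractile genes above the line and pericyte genes below it) and library (columns, scMC38 left of the line). Control 3 is low for Acta2 (-0.80), Cnn1 (-1.35) and Tagln (-0.62), and scMC38 3 is above the control mean for Pdgfrb (0.17) and Cspg4 (0.10).

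Other genes linked to these cells and pathways were followed through lists. Some stood far above Acta2, such as Synpo2 of the contraction list, at 511 CPM in scMC38 and 620 CPM in controls. Abcc9 of the pericyte list stood at 258 CPM in scMC38 and 253 CPM in controls. Which cells of the muscle hold the mRNA of the listed genes was not tested. Among 25 further genes of smooth muscle contraction and its regulators, 20 had a negative log2 fold change, 0 were called in either direction by edgeR, 10 were lower at an unadjusted p under 0.05, and the median was -0.36. DESeq2 called 6 of them lower and limma-voom 0. Over all tested genes, 9.77% were lower at an unadjusted p under 0.05, and DESeq2 called 4.24% lower. The 2 with the smallest p were Cald1, caldesmon, which binds actin and myosin (-0.47, edgeR adjusted p = 0.0662), and Mrtfa, an actin-sensing cofactor of SRF (-0.65, edgeR adjusted p = 0.0682). Cald1 stood at 34.3 ± 2.46 CPM in scMC38 and 47.5 ± 5.57 CPM in controls, and Mrtfa at 24.1 ± 3.95 CPM in scMC38 and 37.7 ± 5.06 CPM in controls (SD, n = 4). Every scMC38 library lies below every control for both genes, a pattern found in 6.45% of all genes. Srf itself had a log2 fold change of -0.11 (edgeR adjusted p = 0.666) and Myocd, at 0.271 CPM in scMC38 and 0.402 CPM in controls, of -0.57 (edgeR adjusted p = 0.496). Srf and Myocd were named after their values were seen, as the factors that act at the CArG box.

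Of 23 further pericyte genes, 18 had a negative log2 fold change, 0 were called, 7 were lower at an unadjusted p under 0.05, and the median was -0.50. DESeq2 called 3 of them lower and limma-voom 0. For this and the following lists, the shares over all genes are 9.77% lower at an unadjusted p under 0.05 and 4.24% lower by DESeq2. Vtn, vitronectin (-0.52, edgeR adjusted p = 0.0883), and Heyl, a Notch target gene of mural cells (-0.79, edgeR adjusted p = 0.117), had the smallest p. Heyl stood at 3.83, 6.66, 6.99 and 4.85 CPM in scMC38 1 to 4, against 10.1, 12.5, 8.72 and 7.17 CPM in control 1 to 4. Its scMC38 libraries all lie below the controls, a pattern found in 6.45% of all genes. Among 20 genes of PDGF and Notch signals to mural cells, 12 had a negative value, 0 were called by edgeR (4 lower at an unadjusted p under 0.05, 1 lower by DESeq2, 0 by limma-voom), and the median was -0.16, with Heyl and the Notch ligand gene Jag2 (-0.38, adjusted p = 0.130 by edgeR) in front. Of 23 tested genes of vascular tone receptors and their signalling, 17 had a negative value, 0 were called by edgeR (4 lower at an unadjusted p under 0.05, 2 lower by DESeq2, 0 by limma-voom), and the median was -0.15. The calcium channel gene Cacna1c (-0.76, adjusted p = 0.0958 by edgeR) and the adrenergic receptor gene Adra1d (-0.93, adjusted p = 0.0974 by edgeR) had the smallest p there. Adra1d was scarce, with a mean of 0.343 CPM in scMC38 and 0.656 CPM in controls. Heyl is counted among both the further pericyte genes and the PDGF and Notch signals, so these lists are not separate observations. With scaling by total counts, which shifts the median of all genes by 0.11, the medians of the 4 lists were -0.24, -0.39, -0.036 and -0.051 in the order given. Leaving out scMC38 1 and 3 gave medians of -0.46, -0.59, -0.14 and -0.21, and without control 1 and 2 they were -0.29, -0.25, -0.024 and -0.16. Leaving out control 2 alone brought the list of further pericyte genes to -0.30 and that of PDGF and Notch signals to -0.047. Without control 4, 1 of the further pericyte genes was called lower by edgeR, against 52 of all 14290 genes tested in that fit.

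**Figure D4:**
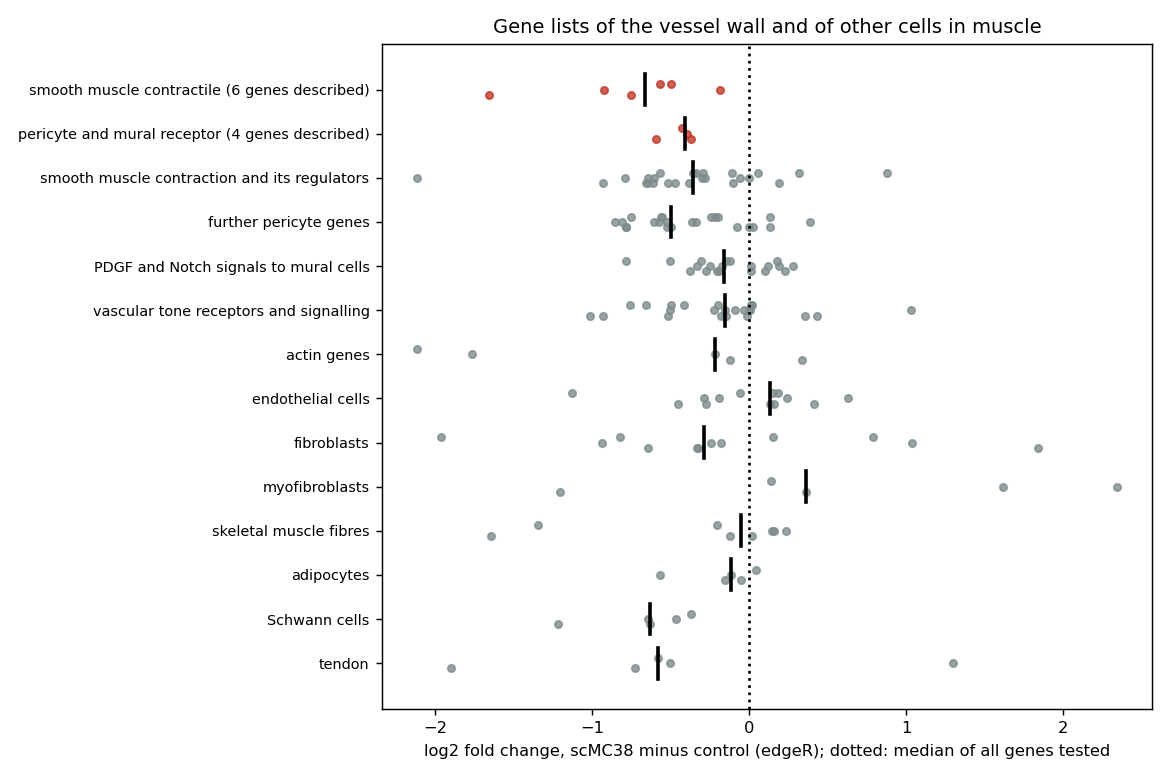
Log2 fold change of scMC38 minus control from edgeR (horizontal axis) for every tested gene (points) of lists of vessel wall genes and of other cells in muscle (rows). The list median is a black bar and the median of all tested genes a dotted line. The myeloid and red cell lists (medians 1.71 and 1.74) and the bone and marrow list (1 tested gene, 2.37) are not drawn. The medians of the 6 contractile and 4 pericyte genes (-0.66 and -0.41) lie left of that line and that of the endothelial list (0.13) right of it.

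Genes of other cells in the samples did not all have the same direction. Of 13 endothelial markers, 7 had a positive and 6 a negative log2 fold change, and the median was 0.13. Called by edgeR were 0, with 2 higher and 1 lower at an unadjusted p under 0.05, 1 lower by DESeq2 and 0 by limma-voom. Of all tested genes, 9.77% were lower at that p and 4.24% were called lower by DESeq2. In either direction, 2966 of the 14112 tested genes reached that p, 1379 of them lower. Leaving out scMC38 1 and 3 brought the endothelial median to 0.040, leaving out control 1 and 2 brought it to 0.30, and leaving out scMC38 3 alone turned it to -0.057. Their summed level ran from 449 to 759 CPM in scMC38 and from 521 to 837 CPM in controls, and none of the 13 was at 0. Pecam1 stood at 97.6 ± 24.9 CPM in scMC38 and 87.6 ± 16.8 CPM in controls (SD, n = 4), and Cdh5, VE-cadherin, at 98.4 ± 21.2 CPM in scMC38 and 112 ± 28.2 CPM in controls (SD, n = 4). The VEGF receptor gene Kdr (-1.13, edgeR adjusted p = 0.0865) and the tight junction gene Cldn5 (0.63, edgeR adjusted p = 0.165) had the smallest p. The difference between the endothelial list and the 10 genes was not tested.

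Nerve and tendon markers had mostly negative values. The shares of all tested genes to set beside the lower counts are 9.77% at an unadjusted p under 0.05, 4.24% by DESeq2 and 0.468% by edgeR. All 5 Schwann cell markers had a negative log2 fold change (median -0.63, 0 called by edgeR and limma-voom, 3 lower by DESeq2 and at an unadjusted p under 0.05), and their summed level ran from 43.1 to 57.0 CPM in scMC38 and from 63.4 to 123 CPM in controls. Pmp22 (-0.63, edgeR adjusted p = 0.0794) came closest to a call. Leaving out scMC38 1 and 3 gave a median of -0.81, and leaving out control 1 and 2 gave -0.50. In the fit without scMC38 1, 1 Schwann marker was called lower by edgeR, against 26 of all 14239 genes tested in that fit. Of 5 tendon markers 4 were negative (median -0.58, 0 called by edgeR and limma-voom, 2 lower at an unadjusted p under 0.05 and 1 by DESeq2), led by Tnmd (-1.90, edgeR adjusted p = 0.123) and Scx (-0.50, edgeR adjusted p = 0.175). Their summed level ran from 68.5 to 335 CPM in scMC38 and from 179 to 507 CPM in controls. The tendon median was -1.42 without scMC38 1 and 3, with all 5 negative, -0.88 without control 1 and 2, -0.92 without scMC38 1 and -0.30 without control 3. Of 12 fibroblast markers 8 were negative (median -0.29, 4 lower at an unadjusted p under 0.05, 3 by DESeq2 and 1 by limma-voom), and 1 was called by edgeR, Col3a1, which fell by 1.96 on the log2 scale (edgeR adjusted p = 0.0352). The Col3a1 call was lost in 7 of the 8 fits that leave out 1 library, all but that without scMC38 1, with edgeR adjusted p up to 0.102, and it was lost without control 1 and 2. With scMC38 1 and 3 left out, 11 of the 12 fibroblast markers were negative (median -0.93) and 2 were called lower by edgeR. That fit called 39 of all 14368 tested genes lower, and Col3a1 was at -2.38 (edgeR adjusted p = 0.0578). The fibroblast median was -0.59 without scMC38 3, -0.15 without scMC38 4 and -0.33 without control 1 and 2. That list summed to between 736 and 4472 CPM in scMC38 and between 1228 and 1723 CPM in controls. The part of nerve, tendon and connective tissue in the level of the 10 genes was not tested.

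The other marker lists were those of fibres, myofibroblasts, fat, white and red cells. The 8 skeletal fibre markers were split evenly (4 positive and 4 negative, median -0.054), with Ckm, creatine kinase, at 23265 ± 3449 CPM in scMC38 and 21044 ± 3430 CPM in controls (SD, n = 4). Of 5 myofibroblast markers 4 were positive (median 0.36), and of 5 adipocyte markers 4 were negative (median -0.11). With all libraries, 0 genes of these 3 lists were called by edgeR, DESeq2 or limma-voom, and 0 had an unadjusted p under 0.05 in edgeR. Without scMC38 1 and 3 all 5 myofibroblast markers were negative (median -1.63). In that fit edgeR called 1 of them lower, against 39 of all 14368 tested genes. Without scMC38 3 alone the myofibroblast median was -0.46. The adipocyte median was 1.15 without control 4, with 0 of 5 negative, 0.020 without scMC38 1 and 3, and -0.93 without control 1 and 2. The directions of these 2 lists thus rest on single libraries. All 7 myeloid markers were positive (median 1.71, 0 called by edgeR and limma-voom, 4 higher by DESeq2 and 5 at an unadjusted p under 0.05), with a summed level of 109 to 2615 CPM in scMC38 and 74.7 to 101 CPM in controls. Leaving out scMC38 1 and 3 brought the myeloid median to 0.64, and leaving out control 1 and 2 brought it to 1.62, with all 7 positive in both fits. All 5 red cell markers were called higher by edgeR, Alas2 among them (1.59, edgeR adjusted p = 0.0315). DESeq2 also called 5 of them higher and limma-voom 3. Without the low-count filter edgeR called 2 of the 5, and with the replicate number as a block 0. The filter of at least 1 CPM left 4 of them, and 4 were called. RLE scaling, total counts alone and leaving out mitochondrial genes kept all 5 calls. Across all 14112 tested genes edgeR called 0.737% higher, and 2966 had an unadjusted p under 0.05, 1379 of them lower. DESeq2 called 10.1% in either direction, 829 genes higher and 597 lower. Of the 5 red cell markers, edgeR called between 0 and 2 with 1 library left out, where it called 2 to 99 of all genes. It called 1 without scMC38 1 and 3 (25 of 14368 genes higher) and 0 without control 1 and 2. All 5 were positive in each of these fits. Without scMC38 1 and 3, which hold the bone and marrow mRNA, the median log2 fold change of the 10 genes was -0.62, against -0.53 with all libraries, and 0 genes of the 10 were called by edgeR, with 7 lower at an unadjusted p under 0.05, compared with 9.27% of all genes in that fit. Without control 1 and 2 the median was -0.45, with 9 of 10 negative, 5 lower at an unadjusted p under 0.05, compared with 6.05% of all genes in that fit, and 0 called.

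With the group means taken off, the genes whose spread over the 8 libraries was most like the mean level of the 10 genes, among 9364 candidates of at least 5 CPM, included Icam1, Jag1, Gja5 and Clec2d. Their root mean square distance from that level, in units of SD, was 0.17 for Icam1, 0.28 for Jag1, 0.32 for Gja5 and 0.35 for Clec2d. Jag1, which encodes a Notch ligand, stood at 8.26 ± 0.73 CPM in scMC38 and 10.2 ± 1.02 CPM in controls (SD, n = 4, log2 fold change -0.31, edgeR adjusted p = 0.158). Icam1, a leukocyte adhesion gene, differed in the other direction, at 6.56 ± 1.58 CPM in scMC38 and 3.82 ± 0.90 CPM in controls (SD, n = 4, log2 fold change 0.78, edgeR adjusted p = 0.116). The likeness thus concerns how mice of a group differ from each other and not the group difference.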

How the data were processed

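Counts came from 8 mouse quadriceps libraries, 4 scMC38 and 4 control by sample title. The authors' deposited table gives estimated counts per gene symbol, unscaled. Per the submitters' processing notes, Salmon 1.10.3 and build GRCm39 were used, with no further roles stated. Strand handling is not stated, so reads of Tagln, Smtn and Notch3 may not be told apart from those of genes overlapping them on the opposite strand.

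Rows without symbol (144, at most 0.00403% of counts) were dropped, repeated symbols summed and values rounded. The test was edgeR 4.0.16 (R 4.3.3): filterByExpr defaults, TMM, quasi-likelihood F test with robust fitting, Benjamini-Hochberg adjustment across 14112 genes, threshold 0.05. CPM values are TMM-scaled, and log2 levels carry a prior count of 2. The common biological coefficient of variation was 27.3%. Precision differed by gene, with an SE from 0.088 for Smtn to 0.51 for Cnn1 among the 10 genes. Alternatives were DESeq2 1.42.0, limma-voom (limma 3.58.1), other filters and scalings, a replicate block and leaving libraries out. The fit was checked on simulated data. Within each group every pair of libraries differed beyond counting noise (chi-square per degree of freedom at least 63.2).

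The 10 genes and the lists were chosen with earlier results of these data known. All 10 are named, plus up to 4 called genes of each list or else the 2 with the smallest p, and a few reference genes. Some genes that this rule names are not reported here. RefSeq promoters (GRCm38.p6) and GENCODE M21 transcripts belong to an earlier build than the counts and gave sequence, length and overlaps.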

Additional observations from a re-analysis of the deposited data

Results flagged for a closer look

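Among the 10 genes in both groups, a single value stood apart from its group by Dixon's test at the 95% level. Pdgfrb was at 34.0 CPM in scMC38 3, against 18.4 to 20.9 CPM in the other 3 scMC38 libraries. Chance gives such a flag in about 1 in 20 groups, and 20 groups were looked at. The same library held the highest level of the bone and marrow genes (471 CPM summed), and the part of that mRNA in the Pdgfrb value was not tested. Without scMC38 3 the log2 fold change of Pdgfrb was -0.61 (edgeR adjusted p = 0.0754), against -0.37 with it.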

How the results depend on the processing

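Of the 10 genes, 9 kept a negative log2 fold change in each alternative that tested them, 18 for each gene except 17 for Cnn1, which the filter of at least 1 CPM removed. Lmod1 ran from -0.349 to 0.107 with 1 library left out, the positive value being that without control 1, and reversed to 0.342 without control 1 and 2 together. The median over the 10 genes stayed within the spread between mice (SD 0.16) in all alternatives and lay between -0.63 and -0.49 when 1 library was left out. Smtn was called in 8 of 18 alternatives: both other filters, RLE scaling, total counts, mitochondrial genes left out, DESeq2, limma-voom and the fit without control 4. Its log2 fold change ran from -0.62 to -0.50 with 1 library left out. It was -0.54 without scMC38 1 and 3 and -0.50 without control 1 and 2, where the call was lost.

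The number of calls was less stable. All genes gave 170 calls, 104 higher and 66 lower, and 267 with total counts alone (80.9% higher against 61.2%). DESeq2 called 1426 genes, 10.1%, and 5 of the 10 (Myh11, Acta2, Cnn1, Smtn and Notch3), against 4.24% of genes lower by DESeq2. The calls were 64 without scMC38 1 and 3 and 0 without control 1 and 2 (1605 genes at an unadjusted p under 0.05), with 0 of the 10 called in both. Leaving out 1 library gave 2 to 99 calls and 0 to 1 of the 10. With the replicate number as a replicate block, 1 gene and 0 of the 10 were called, and Smtn was at -0.56 (edgeR adjusted p = 0.186). Same-numbered libraries deviated oppositely or not at all (correlation from -0.28 to -0.0058), which gives no sign of pairing by number. With 4 libraries per group, this check cannot exclude a factor shared by number. The causes of these shifts were not tested. Relative counting error is largest for Cnn1, with 19 to 169 counts per library. Cspg4, with 176 to 535 counts, and Lmod1, with 310 to 811, come next.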
